A study of Mus musculus with 3 samples.

Results

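Hox-positive wall muscle is the set of smooth muscle cells from mouse arteries that carried transcripts of Hox genes of paralog groups 6 to 10. It held 828 cells of 14115 cell barcodes in the series, 485 in the TKI library and 343 in the Control library. The rule was applied to cells with at least 10000 unique molecular identifiers (UMIs, a tag counted once per captured RNA molecule), at most 15% mitochondrial UMIs and at least 2% of UMIs over Acta2, Tagln, Myh11 and Cnn1. Rgs5, a mural gene, had to stay under 5 per 10000 UMIs and Sfrp2, a secreted Wnt modulator, under 3 UMIs, and at least 2 UMIs over the Hox genes of groups 6 to 10 were required. In the TKI library, these steps left 3254, 3241, 3144, 1406, 1220 and 485 cells of 4506 barcodes. In the Control library they left 3537, 3532, 3386, 1437, 1080 and 343 cells of 4491 barcodes. Cells that met every step but carried no UMI of those Hox genes are called Hox-zero wall muscle and numbered 533 in the TKI and 562 in the Control library. A further 202 TKI and 175 Control cells had exactly 1 such UMI. Hox-zero means that no such UMI was captured, so the class can hold cells that express these genes. With each cell thinned to 10000 UMIs, its share of wall muscle rose from 43.7% to 57.1% in TKI and from 52.0% to 65.4% in Control.

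The study profiled single cells of vascular tissue digested from arteries of wild-type mice with droplet 3' RNA sequencing. One library was labelled TKI, for mice given the tyrosine kinase inhibitor sunitinib, and the other Control, for mice given vehicle; the titles of both add 3 weeks, without saying what the time counts from. The library from mice given sunitinib with Yoda1, an opener of the Piezo1 channel, was of other depth and cell makeup and was used only for a background value. The labels name no dose, age, sex or number of animals behind a library, and no sort of the cells. With 1 library per group there is no replicate and no test: differences between TKI and Control describe these libraries, and the 95% intervals given cover counting error only. Treatment, mouse, dissection and library cannot be told apart.

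Hox genes encode homeodomain transcription factors that lie in 4 genomic clusters, HoxA to HoxD. Their order along a cluster parallels the position along the head-to-tail axis at which each gene is switched on in the embryo, and adult mesenchymal cells, vascular smooth muscle included, keep part of this pattern. Higher-numbered groups mark more caudal positions. Smooth muscle of the ascending aorta and arch derives largely from neural crest and second heart field, which use Hand2 and Tbx20, while that of the descending aorta derives from trunk mesoderm. Sunitinib inhibits receptor tyrosine kinases such as the VEGF and PDGF receptors and Kit, whose signals run in part through ERK to immediate early genes.

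The label of a smooth muscle population held. Acta2, alpha smooth muscle actin, was at 27069 counts per 1000000 UMIs of the summed cells (CPM) in TKI and 22782 CPM in Control Hox-positive cells, and Myh11, smooth muscle myosin heavy chain, 4377 and 3893 CPM; both were in 100% of the cells, and both are among the genes used to choose them. Genes that the rule did not use were there too: Lmod1, leiomodin 1, was found in 100% of the cells of both libraries, and Myocd, the coactivator that drives contractile genes, in 85.8% of TKI and 90.4% of Control cells. Of the Hox markers in the label, Hoxc8 was close to absent, with 10 UMIs in 1.86% of TKI cells and 5 UMIs in 1.17% of Control cells. No gene of groups 11 to 13 had a UMI in any Hox-positive cell. The population is therefore described by the genes that lead it, which are of groups 6 to 8 in the HoxA and HoxB clusters.

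Sequencing depth was close between the libraries. They held 66769480 UMIs (TKI) and 73901343 UMIs (Control), and the Hox-positive cells 9325359 and 6699367 of them. The median Hox-positive cell had 17525 UMIs in TKI and 17152 in Control, and the median Hox-zero cell 17188 and 16437. Mitochondrial UMIs made up a median of 7.13% and 6.59% of Hox-positive cells, and 7.12% and 6.39% of Hox-zero cells, TKI first. TKI and Control shared 3 cell barcodes, none of them in Hox-positive cells. Markers of other cell types, given as their summed level, were mostly low. Endothelial markers summed to 49.9 CPM in TKI and 35.4 CPM in Control Hox-positive cells, with Kdr at 0 UMIs, against 24.7 and 25.5 CPM in Hox-zero cells; 7 of 485 TKI and 11 of 343 Control Hox-positive cells held 5 or more of these UMIs, and a single TKI cell held 119. Fibroblast markers, mostly Col1a1 and Mfap5, which smooth muscle also makes, summed to 744 and 902 CPM in Hox-positive cells, against 696 and 789 CPM in Hox-zero cells. Macrophage markers summed to 3.65 and 2.24 CPM with Ptprc and Lyz2 at 0, erythroid markers to 1.07 and 5.22 CPM, and adipocyte and mesothelial markers were at 0.

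The promoters of Hoxa7, the gene with the most UMIs among those that chose the cells, and of Hand2 and Tbx18, transcription factors at least 1.5-fold lower and higher in Hox-positive than in Hox-zero cells of both libraries, are printed on their own lines. Each is the RefSeq window of 300 bases, running from 250 before to 50 after the start that RefSeq gives, in build GRCm38.p6, and capitals mark any match to a searched motif on either strand. Hoxa7 lies at chr6:52218524-52218823 on the minus strand, Hand2 at chr8:57320733-57321032 on the plus strand and Tbx18 at chr9:87731211-87731510 on the minus strand. The RefSeq start of Hoxa7 lies inside the longer GENCODE gene, so its window is not at the upstream end of that gene.
Hoxa7: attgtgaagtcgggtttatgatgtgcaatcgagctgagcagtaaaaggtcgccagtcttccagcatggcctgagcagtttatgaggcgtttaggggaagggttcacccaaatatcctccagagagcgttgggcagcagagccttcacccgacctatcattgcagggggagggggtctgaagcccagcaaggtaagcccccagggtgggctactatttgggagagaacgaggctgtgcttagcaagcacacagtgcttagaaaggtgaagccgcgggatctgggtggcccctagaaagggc
Hand2: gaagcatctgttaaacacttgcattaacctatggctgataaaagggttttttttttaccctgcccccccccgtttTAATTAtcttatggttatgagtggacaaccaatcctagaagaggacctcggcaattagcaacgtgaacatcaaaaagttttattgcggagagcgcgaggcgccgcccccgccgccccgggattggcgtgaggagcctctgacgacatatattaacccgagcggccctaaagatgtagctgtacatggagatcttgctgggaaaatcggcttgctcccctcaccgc
Tbx18: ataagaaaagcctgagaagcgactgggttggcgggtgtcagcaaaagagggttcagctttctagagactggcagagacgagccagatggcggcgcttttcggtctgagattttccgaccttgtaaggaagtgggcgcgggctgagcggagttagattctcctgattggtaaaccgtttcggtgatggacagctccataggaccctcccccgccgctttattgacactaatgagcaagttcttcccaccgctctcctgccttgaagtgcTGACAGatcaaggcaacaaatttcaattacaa
The motifs searched were TGATTNAT, the joint site of PBX and HOX proteins, TAATTA, a homeodomain core, and TGACAG, the core bound by MEIS proteins. Of 32851 promoters in the same table, 3.22% held the first, 5.29% the TAATTA core and 19.2% the MEIS core. The Hand2 window held 1 TAATTA, the Tbx18 window 1 TGACAG, and the Hoxa7 window none of these letters; the matches are a description of the windows only. The promoter table was searched for 9 genes and held 6 of them.

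Hoxa7 and 3 genes of the HoxB cluster gave most of the UMIs that placed cells in the population, so the values in this paragraph describe how the cells were chosen and nothing was tested on them. Hoxa7 (chr6:52214491-52221854, minus strand, mm10; it overlaps the antisense transcript Hoxaas3) had 948 UMIs in TKI and 506 in Control cells, which is 102 CPM (95.3 to 108) and 75.5 CPM (69.1 to 82.4), in 84.1% and 72.6% of the cells. Hoxb7 (chr11:96286623-96290162, plus strand) had 355 and 181 UMIs, or 38.1 and 27.0 CPM. Hoxb6 (chr11:96292476-96301569, plus strand) had 275 and 253 UMIs, which is 29.5 CPM in TKI and 37.8 CPM in Control. Hoxb8 had 107 and 102 UMIs (11.5 and 15.2 CPM), Hoxc6 60 and 48 UMIs (6.43 and 7.16 CPM) and Hoxb9 36 and 23 UMIs (3.86 and 3.43 CPM). All other members of groups 6 to 10 had 15 UMIs or fewer in either library. Genes of groups 9 and 10 were rare: a UMI of group 9 or 10 was seen in 49 TKI cells (10.1%) and 33 Control cells (9.62%).

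**Figure D1:**
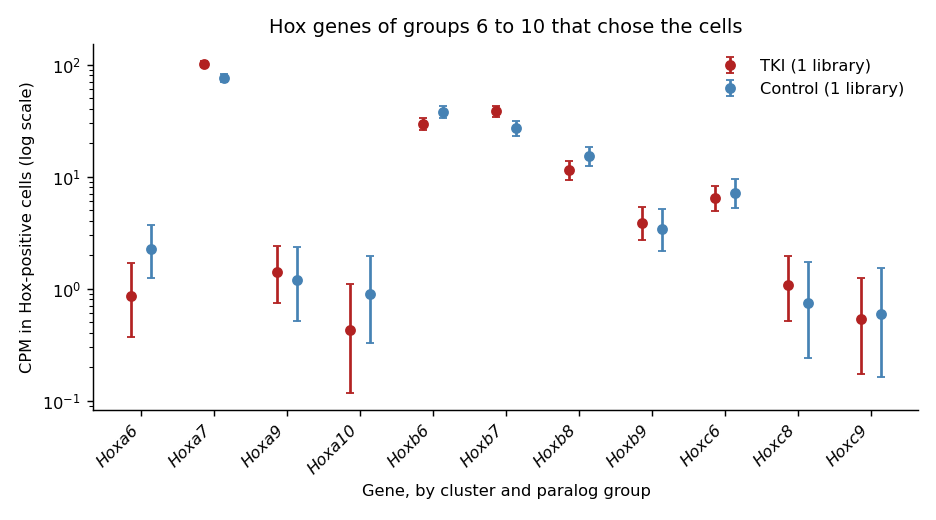
CPM on a log axis of each Hox gene of groups 6 to 10 with enough UMIs to draw, in Hox-positive cells of the TKI (left point) and Control (right point) libraries; bars are exact 95% counting intervals, 1 library each. Hoxa7 stands highest in both, at 102 CPM in TKI and 75.5 CPM in Control, while groups 9 and 10 lie under 4 CPM.

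HoxA and HoxB genes of groups 6 to 10 were seen together in most of the cells. The same UMIs chose the cells, and asking for at least 2 of them favours cells with both clusters. The shares in this paragraph therefore also describe the choice. UMIs of both HoxA and HoxB genes of groups 6 to 10 were found in 294 TKI cells (60.6%) and 188 Control cells (54.8%). HoxA without HoxB was found in 117 TKI cells (24.1%) and 67 Control cells (19.5%), and HoxB without HoxA in 73 (15.1%) and 85 (24.8%). HoxC genes were found in 66 TKI cells (13.6%) and 45 Control cells (13.1%), HoxD genes in 2 and 1. The median cell held 3 of these UMIs in each library, and the highest 15 in TKI and 11 in Control. Cells just inside the rule, with exactly 2 UMIs, numbered 134 in TKI and 140 in Control, and cells just outside it, with 1, numbered 202 and 175.

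A larger share of wall muscle met the Hox rule in the TKI library. It was 39.8% (37.0 to 42.6) of 1220 TKI cells and 31.8% (29.0 to 34.6) of 1080 Control cells. After each cell was thinned to 10000 UMIs before the rule was applied, it was 24.9% (22.6 to 27.4; 323 of 1295 cells) in TKI and 15.2% (13.3 to 17.4; 186 of 1222 cells) in Control, so the order was the same at equal depth. Over all wall muscle cells, not chosen on Hox genes, Hoxa7 had 1017 UMIs in TKI and 561 in Control (45.3 and 28.5 CPM; log2 ratio 0.67, 0.52 to 0.82), and Hoxb7 had 396 and 217 (17.63 and 11.01 CPM; log2 0.68, 0.44 to 0.93). Hoxb6 and Hoxb8 did not follow, at log2 -0.06 and -0.09, with intervals that span 0. In endothelial-like cells of the same libraries, the Hoxa7 ratio was log2 -0.02 (-0.53 to 0.49). Which stretch of artery entered each dissection is not in the labels, so the amount of caudal artery and the treatment cannot be told apart.

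Posterior Hox UMIs were not particular to this wall muscle, nor to muscle. Without the Rgs5 and Sfrp2 limits, 1741 of 3144 TKI and 1634 of 3386 Control muscle cells held at least 2 (55.4% and 48.3%). Within the limits the shares were 39.8% and 31.8%, so the muscle that the limits leave out met the Hox step more often. Of the 64 TKI and 60 Control endothelial-like cells, 46 (71.9%) and 37 (61.7%) held at least 2. Summed over groups 6 to 10, the level was 196 CPM in TKI and 172 CPM in Control Hox-positive muscle, against 232 and 234 CPM in endothelial-like cells. Lymphocyte-like cells of the Yoda1 library, taken as a background, met the Hox step in 6 of 1807 cells (0.332%) at a median of 5668 UMIs. That is another library at lower depth, and the origin of those UMIs was not tested. Of the Hox-positive cells, 72.8% in TKI and 71.1% in Control had no UMI of the endothelial genes Pecam1 and Cdh5.

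Hox genes of groups 1 to 5, which the rule did not use, were present in both kinds of wall muscle. At least 1 such UMI was found in 89.5% of TKI and 91.0% of Control Hox-positive cells, against 82.2% and 81.3% of Hox-zero cells. Hoxa5 (chr6:52201754-52204587, minus strand) had 258 UMIs in TKI and 221 in Control Hox-positive cells, against 152 and 144 in Hox-zero cells, a log2 ratio of Hox-positive over Hox-zero of 0.80 in TKI and 1.18 in Control. Hoxb5 (chr11:96303336-96306121, plus strand) had 145 and 92 UMIs against 79 and 66, at log2 0.91 and 1.04. These group 5 genes, next to the rule's limit, were the 2 of 7 measured genes of groups 1 to 5 that were at least 1.5-fold higher, and none was 1.5-fold lower. Hoxb2, Hoxb3, Hoxa3 and Hoxa4 were between log2 -0.37 and 0.33 in both libraries, and Hoxb4 was at 0.06 in TKI and 0.56 in Control. Hotairm1, a noncoding RNA at the other end of HoxA, was at log2 0.26 and 0.30. Hoxb3os, an antisense transcript of HoxB, ran opposite, with 76 and 55 UMIs in Hox-positive against 166 and 174 in Hox-zero cells, at log2 -1.09 and -1.10.

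Outside the Hox clusters, Hox-positive cells had far less Hand2 and less Tbx20 than Hox-zero cells, and more Tbx18, Sema3a and Tnc. A gene was counted as different when the summed counts differed at least 1.5-fold with at least 100 UMIs over both sums. By that measure 118 of 8921 genes (1.32%) were higher and 103 (1.15%) lower in Hox-positive than in Hox-zero TKI cells, and 105 (1.26%) and 103 (1.23%) of 8352 in Control. Of 8304 genes measured in both libraries, 39 (0.47%) were higher in both, 47 (0.566%) lower in both, and 0 went opposite ways. The shared 39 are 40.6% of the higher genes of the TKI library and 40.2% of those of the Control library, and the shared 47 are 59.5% and 47.5% of the lower ones. The classes were cut on Hox UMIs within each library, and these ratios are descriptions with no test.

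**Figure D2:**
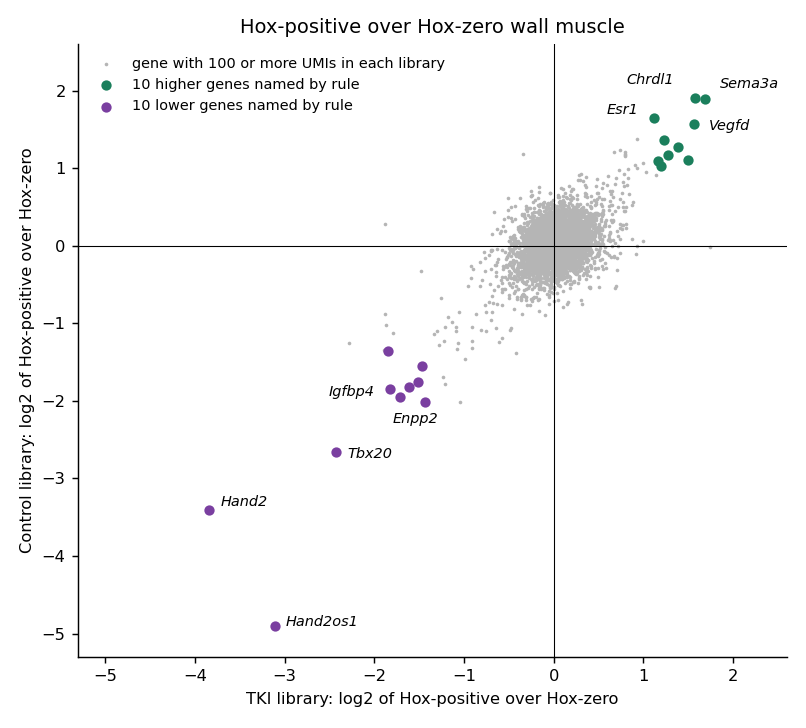
Log2 ratio of Hox-positive over Hox-zero wall muscle in the TKI library (x axis) and in the Control library (y axis), 1 point per gene with at least 100 UMIs in each library. The 10 higher genes named by rule lie at upper right, and Hand2, Hand2os1 and Tbx20 lie lowest, at log2 -3.84, -3.11 and -2.42 in TKI and -3.41, -4.91 and -2.66 in Control.

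Hand2 (chr8:57320983-57324633, plus strand) encodes a basic helix-loop-helix factor of the developing heart, outflow tract and pharyngeal arches. It had 31 UMIs in TKI and 28 in Control Hox-positive cells, against 454 and 440 in Hox-zero cells, or 3.32 and 4.18 CPM against 47.5 and 44.4 CPM. The log2 ratio was -3.84 (-4.41 to -3.31) in TKI and -3.41 (-4.02 to -2.86) in Control. A Hand2 UMI was found in 3.51% of TKI and 3.50% of Control Hox-positive cells, against 36.4% and 36.1% of Hox-zero cells; thinned to equal depth the shares were 2.06% and 2.04%, against 28.0% and 26.3%. Endothelial-like cells, which should lack the gene, held it in 1 of 64 (1.56%, 0.04 to 8.40) and 1 of 60 (1.67%, 0.04 to 8.94). These intervals are too wide to tell the low share in Hox-positive cells from background. Of the Hox-positive cells with a Hand2 UMI, 7 of 17 in TKI and 11 of 12 in Control held 2 or more. Read from the other side, 17 of 216 TKI cells (7.87%) and 12 of 223 Control cells (5.38%) with a Hand2 UMI were Hox-positive, against 468 of 1004 (46.6%) and 331 of 857 (38.6%) without one. Hand2os1 (chr8:57281117-57324233, minus strand), which runs across Hand2 on the other strand, had 12 and 3 UMIs against 106 and 133. The sources used here do not say whether counting used strand, so reads of the 2 genes cannot be told apart where they overlap.

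Tbx20 (chr9:24718138-24774303, minus strand), a T-box factor of heart and outflow tract, showed the same split at a lower level. It was at 3.22 CPM in TKI and 3.28 CPM in Control Hox-positive cells, against 17.3 and 20.8 CPM in Hox-zero cells, at log2 -2.42 and -2.66, and in 4.95% and 4.66% of cells against 20.3% and 20.8%. Tbx18 (chr9:87702800-87731260, minus strand), a T-box factor of epicardium and mural cells, ran opposite: 539 and 324 UMIs in Hox-positive against 271 and 249 in Hox-zero cells, at log2 1.03 and 0.95, in 60.0% and 54.8% of cells against 35.5% and 31.5%. These were the 3 of 7 measured outflow and neural crest factors past 1.5-fold in both libraries. Gata6, a zinc finger factor of outflow tract muscle, was at log2 0.07 in TKI and 0.11 in Control, and the list's median was 0.07 and 0.10, beside 0.02 for all genes in each library. Of trunk mesoderm and regional factors, none of 8 measured was higher in either library. Prrx2, a paired-related homeobox factor of mesenchyme, was lower in both, at log2 -0.64 in TKI and -1.06 in Control, and Nr2f1, a nuclear receptor, in TKI, at -0.60. Pax1 and Pax9, which pattern the sclerotome and stand on the same list, fell outside the naming rules and had too few UMIs to be counted. Pax1 had 24 and 11 in Hox-positive against 3 and 1 in Hox-zero cells, and Pax9 had 21 and 16 against 5 and 9. The other uncounted members of that list are not given here, so Pax1 and Pax9 do not stand for it. Piezo2, a mechanically gated channel also outside those rules, likewise had few, at 9 and 14 UMIs against 49 and 67. Piezo1 had 42 and 36 against 42 and 49.

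The 10 highest genes by the naming rule included guidance and growth factors, matrix, a channel and a nuclear receptor. Sema3a (chr5:13125414-13602565, plus strand), a repellent guidance cue for axons and vessels, was at 24.0 CPM in TKI and 29.9 CPM in Control Hox-positive cells, against 7.43 and 8.07 CPM in Hox-zero cells, at log2 1.69 and 1.89. It was in 29.7% and 39.4% of Hox-positive cells against 10.1% and 9.61% of Hox-zero cells, and in 0 of 64 and 1 of 60 endothelial-like cells. Tnc, the matrix glycoprotein tenascin C, was at 59.7 and 66.6 CPM against 25.4 and 25.8 CPM, at log2 1.23 and 1.37. The cells also had more of Chrdl1, a BMP antagonist (22.4 and 15.8 against 7.54 and 4.24 CPM), and of Vegfd, a lymphatic growth factor (12.4 and 13.7 against 4.19 and 4.64 CPM). P2rx1, the ATP-gated channel through which sympathetic nerves contract arteries, was at 49.97 and 33.44 against 21.8 and 16.4 CPM. Cyp1b1, a cytochrome P450 that metabolises steroids and lipids, was at 13.9 and 12.4 against 5.34 and 5.14 CPM, and Esr1, oestrogen receptor alpha, at 9.76 and 12.99 against 4.50 and 4.14 CPM. Unlike Sema3a, Esr1 was not particular to the muscle. It was in 16.1% of TKI and 21.3% of Control Hox-positive cells, and in 32.8% and 21.7% of endothelial-like cells. Rgs17, which switches off G proteins, was at log2 1.27 and 1.17, Mylk2, a myosin light chain kinase best known from skeletal muscle, at 1.49 and 1.10, and Slc22a2, an organic cation transporter, at 1.16 and 1.09. Beyond these, Fn1, fibronectin, had 10712 and 6768 UMIs against 6449 and 6262, at log2 0.77 and 0.68, and was named after its values were seen. With the rule applied to cells thinned to equal depth it was at 0.36 and 0.41, under 1.5-fold in both libraries.

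The 10 lowest were led by Hand2, Hand2os1 and Tbx20. Igfbp4, a binding protein for insulin-like growth factors, was at 13.2 CPM in TKI and 17.2 CPM in Control Hox-positive cells, against 46.6 and 61.6 CPM in Hox-zero cells, at log2 -1.82 and -1.84. Enpp2, autotaxin, which makes lysophosphatidic acid, was at -1.71 and -1.96, and Atp1b1, a sodium pump subunit, at -1.85 and -1.36. Sphkap, an anchor for protein kinase A, was at -1.44 and -2.01, Brip1, a DNA repair helicase, at -1.62 and -1.82, and Smim3, a small membrane protein, at -1.47 and -1.55. Pln, phospholamban, the inhibitor of the sarcoplasmic calcium pump, had 41 and 33 UMIs against 102 and 119, at log2 -1.28 and -1.29. Tnnt2, cardiac troponin T, was at -1.90 and -1.34, and with Actc1 made the cardiomyocyte markers sum to 9.33 and 13.3 CPM in Hox-positive against 33.3 and 30.9 CPM in Hox-zero cells, with the atrial Myl7 at 0. The part of such RNA in the Hand2 and Tbx20 values was not tested.

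The contractile genes were level between the classes, while some other muscle lists held called members. None of 24 contractile genes differed 1.5-fold in either library, and their median log2 ratio was -0.01 in TKI and 0.02 in Control. None of 15 heat shock genes (median -0.02 and -0.06), of 27 respiratory chain genes (0.03 and 0.01) or of 7 Hox cofactor genes of the PBX and MEIS families (-0.01 and -0.29) did so. Against 1.32% and 1.26% of all genes called higher and 1.15% and 1.23% lower (TKI and Control), 3 of 16 vasoactive receptors and signalling genes were higher in TKI (P2rx1, Npr3 at log2 0.87 and Htr2a at 0.77) and 1 of 15 in Control (P2rx1), with none lower. Of modulated smooth muscle genes, 2 of 14 were higher in TKI, Fn1 and Thbs1. In Control 4 of 15 were higher, Fn1, Dcn, Timp1 and Igfbp2, and 1 lower, Vcam1, an adhesion receptor, at -1.39. Dcn and Timp1 rest mostly on 1 cell each. Thbs1 in TKI was at log2 1.74, with 46 of 150 UMIs in 1 cell, and at 0.08 with the rule applied to thinned cells. Igfbp2 in Control was at 1.18, with 123 of 321 UMIs in 1 cell, and at 0.53 with at least 3 Hox UMIs. Col14a1, a collagen of fibrils, was the called member of 15 collagens in both libraries, at -1.26 and -0.67, and Lamc3, a laminin chain, that of 9 laminin and basement membrane genes, at -1.05 and -2.02. Of 16 elastic fibre genes measured in TKI, 1 was higher, Fbln2 at 0.81, and 1 lower, Mfap2 at -0.97, with none called among 14 in Control.

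Hand2 and Sema3a were near their level in Hox-positive cells at the first Hox UMI in a cell, while Tbx20, Tnc and Esr1 differed further between groups with more. In groups of cells with 0, 1, 2, 3 to 4 and 5 or more posterior Hox UMIs, Hand2 was at 47.5, 3.62, 3.29, 3.71 and 2.80 CPM in TKI and at 44.4, 4.19, 3.45, 4.02 and 5.61 CPM in Control. Cells with 1 UMI, which the rule leaves out, were therefore as low in Hand2 as those it takes. Tbx20 went down more gradually, at 17.3, 7.80, 4.11, 4.20 and 1.05 CPM in TKI and 20.8, 6.44, 3.83, 3.22 and 2.49 CPM in Control. Tbx18 was at 28.4, 48.8, 51.0, 59.4 and 61.4 CPM in TKI and 25.1, 39.6, 48.7, 45.9 and 51.8 CPM in Control. Tnc was at 25.4, 41.8, 62.1, 54.4 and 65.2 CPM in TKI and 25.8, 56.7, 60.5, 72.4 and 67.4 CPM in Control, and Esr1 at 4.50, 5.02, 7.82, 9.40 and 11.9 CPM in TKI and 4.14, 8.70, 8.81, 16.9 and 13.7 CPM in Control. Sema3a was near its full level at 1 UMI, at 7.43, 23.1, 23.5, 23.5 and 25.2 CPM in TKI and 8.07, 32.5, 34.1, 22.9 and 33.7 CPM in Control. The median depth per cell was 17188, 17014, 17052, 16991 and 19335 UMIs in TKI and 16437, 16385, 16946, 16809 and 19414 in Control, so the last group was also the deepest.

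**Figure D3:**
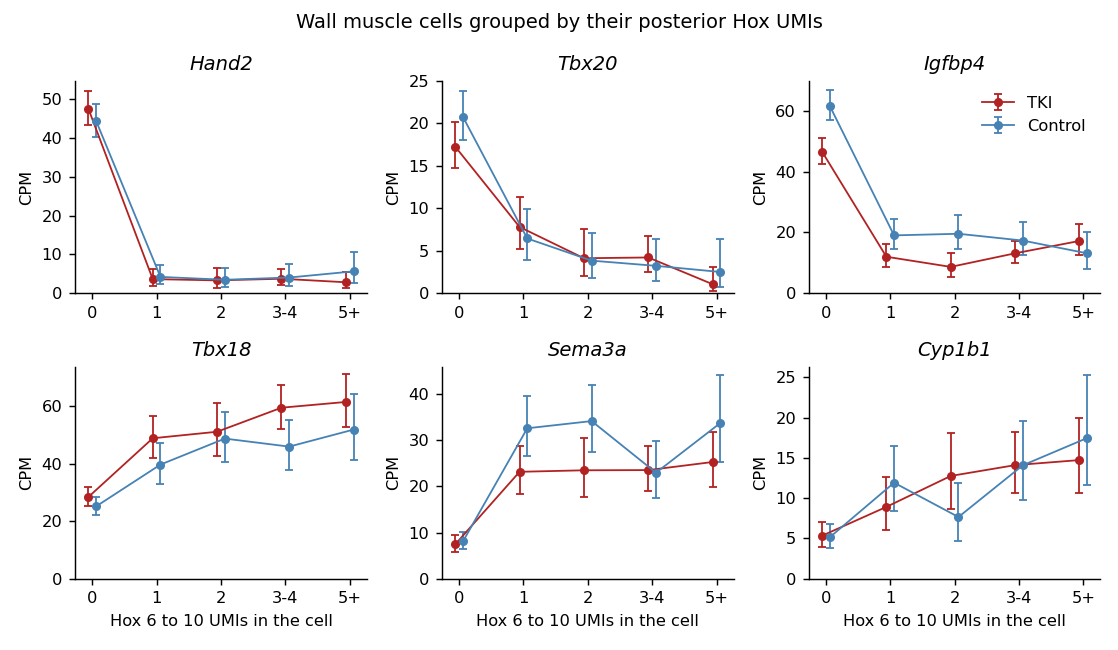
CPM of 6 genes (y axes, linear from 0) in wall muscle cells grouped by their posterior Hox UMIs (x axis), in TKI and Control; bars are exact 95% counting intervals, 1 library each. Hand2 and Igfbp4 drop between 0 and 1 UMI and stay low, while Tbx18 lies higher in every group with a Hox UMI than in the group with 0.

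Within the Hox-positive cells, the 49 TKI and 33 Control cells with a UMI of group 9 or 10 were set beside the 436 and 310 cells with groups 6 to 8 only. Tbx18 was at 56.0 CPM in TKI and 60.4 CPM in Control cells with group 9 or 10, against 58.0 and 47.2 CPM in the others. Hand2 was at 3.80 and 14.7 CPM against 3.26 and 3.12 CPM, so the Control subset alone stood apart, on few UMIs. In cells with HoxA genes alone, Hand2 had 7 UMIs in TKI and 7 in Control (3.49 and 5.88 CPM), against 2 and 5 (1.40 and 2.90 CPM) in those with HoxB genes alone, too few to order. Tbx18 was at 62.8 and 52.9 CPM against 52.5 and 41.7 CPM. Sema3a was at 26.4 CPM with HoxA alone against 11.9 CPM with HoxB alone in TKI, but at 24.3 against 31.9 CPM in Control.

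TKI Hox-positive cells had lower heat shock, immediate early and ERK feedback transcripts than Control ones, and more Fkbp5 and Dbp. Of 8480 genes measured, 350 (4.13%) were at least 1.5-fold higher and 243 (2.87%) at least 1.5-fold lower in TKI. The split depended on scaling: with TMM factors it was 249 higher and 326 lower, with median-of-ratios factors 235 and 329, since the median log2 ratio of all genes was 0.06 on the CPM scale and -0.01 and -0.02 on those. In Hox-zero cells of the same libraries, 343 (3.87%) of 8861 genes were higher and 208 (2.35%) lower. The Hox-zero ratio is given beside most of the genes named by rank below, and is left out for most members of lists. It comes from the same libraries and is no replicate.

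**Figure D4:**
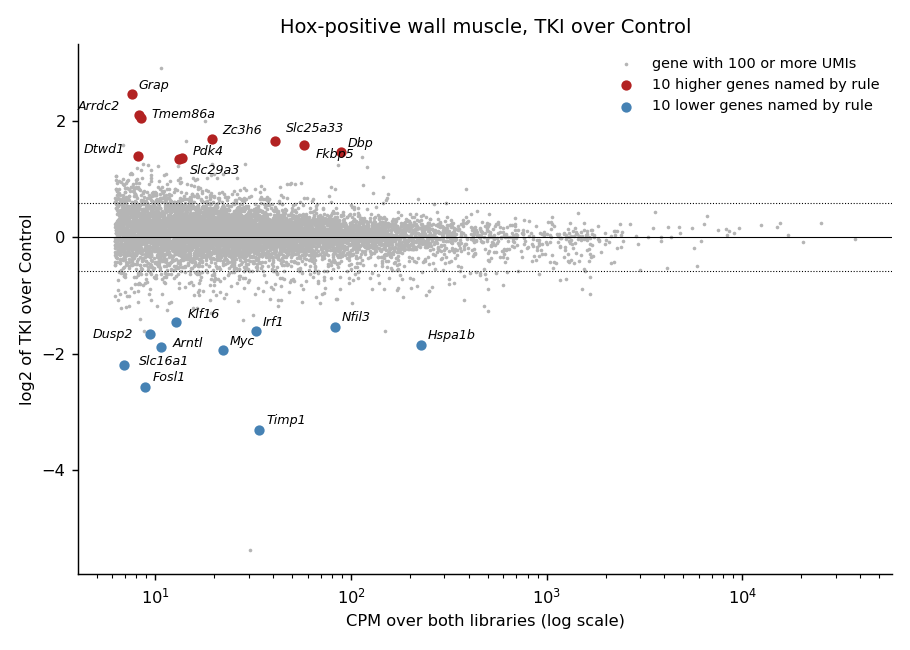
Log2 ratio of TKI over Control in Hox-positive wall muscle (y axis) against CPM over both libraries (x axis, log scale), 1 point per gene with at least 100 UMIs; dotted lines mark 1.5-fold. Grap stands at log2 2.46 among the higher named genes, and Timp1, at -3.30, owes its place to 1 Control cell.

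Among the higher genes, Fkbp5, a co-chaperone that glucocorticoids induce, was at 80.0 CPM in TKI and 26.9 CPM in Control cells, in 70.5% and 35.6% of them, at log2 1.57 (1.34 to 1.82) against 1.60 in Hox-zero cells. Dbp, a clock output factor, was at 121 and 43.9 CPM, at log2 1.46 (1.27 to 1.65) against 1.14 in Hox-zero cells. Slc25a33, a mitochondrial pyrimidine carrier, was at 56.9 and 18.1 CPM, at 1.66 (1.37 to 1.95) against 1.44. Grap, an adaptor of receptor kinase signalling, was at 11.5 and 2.09 CPM, at 2.46 (1.65 to 3.38) against 2.10; the gene overlaps Slc5a10. Pdk4, the kinase that holds pyruvate back from oxidation, was at 18.3 and 7.16 CPM, at 1.36 against 1.05. Arrdc2, an arrestin-domain protein, was at log2 2.10, Tmem86a, a lysoplasmalogenase, at 2.05, Zc3h6, a zinc finger protein, at 1.68, and Slc29a3, a lysosomal nucleoside transporter, at 1.33, with Hox-zero ratios of 1.53, 1.07, 0.99 and 0.72. The genes named here were at least 1.5-fold higher in both classes of muscle, apart from Dtwd1, at 1.39 against 0.24 in Hox-zero cells.

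Among the lower genes, Myc, the growth-promoting transcription factor, was at 10.1 CPM in TKI and 38.7 CPM in Control cells, at log2 -1.94 (-2.30 to -1.59) against -1.99 in Hox-zero cells. Fosl1, an AP-1 subunit that ERK signalling induces and stabilises, was at 2.90 and 17.2 CPM, at -2.57 (-3.23 to -1.95) against -2.42. Hspa1b, an inducible heat shock protein, was at 109 and 392 CPM, at -1.84 (-1.95 to -1.74) against -1.59; its near-identical copy Hspa1a was at -1.26, and the split of reads between them is uncertain. Irf1, an interferon and NF-kappaB responsive factor, was at 17.5 and 53.6 CPM, at -1.62 against -1.58. Nfil3, a repressor that competes with Dbp for the same sites, was at 45.9 and 133 CPM, at -1.54 against -1.23, and Arntl, the clock activator BMAL1, at 5.04 and 18.7 CPM, at -1.89 against -1.43. Klf16, a zinc finger factor, was at log2 -1.46 against -1.52. Slc16a1, a lactate transporter, was at -2.19 against -0.48, and Dusp2, a phosphatase of MAP kinases, at -1.67 against -0.26. Timp1, a metalloprotease inhibitor, had 67 UMIs in TKI and 475 in Control, but 428 of the 475 lay in a single cell and the log2 ratio of -3.30 was -0.10 without the top cell of each library. Dcn was of the same kind, with 426 of 474 Control UMIs in 1 cell.

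Stress and signalling lists were low together in the TKI cells. Over all 8480 genes, 4.13% were called higher and 2.87% lower. Of 15 heat shock genes, 9 were at least 1.5-fold lower and none higher, with a median log2 ratio of -0.70, against -0.73 in Hox-zero cells and 0.06 over all genes. Hspa1a was at 318 CPM in TKI and 761 CPM in Control (log2 -1.26), and Dnaja1, an Hsp40 co-chaperone, at 311 and 707 CPM (-1.19); Cryab, a small heat shock protein, was at -0.15. Of 26 immediate early genes, 13 were lower and none higher, with a median of -0.59, against -0.39 in Hox-zero cells. Egr1, a serum-response factor, was at 1186 and 2317 CPM (-0.97), and Fos was at -0.50. Of 11 ERK feedback genes, 6 were lower and none higher, with a median of -0.59, against -0.52 in Hox-zero cells: Phlda1 was at -1.30, Dusp5, an ERK phosphatase, at -0.94, Spry4, an inhibitor of receptor kinase signalling, at -0.94, and Hbegf, an EGF-family ligand, at -0.85. Some genes stand on more than 1 of these lists. In all 3, the medians of the Hox-positive and the Hox-zero cells lay on the same side of 0. Without every cell holding 2 or more endothelial or fibroblast UMIs, which left 32 TKI and 15 Control cells, the medians of the immediate early and ERK feedback genes turned to 0.30 and 0.33.

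Other signalling lists were smaller or mixed. Over all 8480 genes, 4.13% were higher and 2.87% lower, and counts of 1 or 2 members are too small to set a list apart. Of 9 NF-kappaB and cytokine genes, 3 were lower, among them the chemokine Cxcl1 at log2 -1.40. The list's median was -0.43, against -0.18 in Hox-zero cells. Of 19 TGF-beta targets, 3 were lower, with a median of -0.39, against -0.26 in Hox-zero cells. They were Tgif1, a repressor of the pathway, at -1.07, and the ligands Tgfb2 at -0.88 and Tgfb3 at -0.61. Of 16 glucocorticoid induced genes, 4 were higher and 1 lower, with a median of 0.17, against 0.27 in Hox-zero cells. The higher ones were Fkbp5, Pdk4, Klf15 at 0.92 and Tsc22d3, which encodes GILZ, at 0.81, and the lower one was Cdkn1a at -0.92. Of 14 circadian genes, 2 were higher and 3 lower: Dbp and Hlf (0.87) against Arntl, Nfil3 and Bhlhe40 (-0.85), and the median was -0.03.

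**Figure D5:**
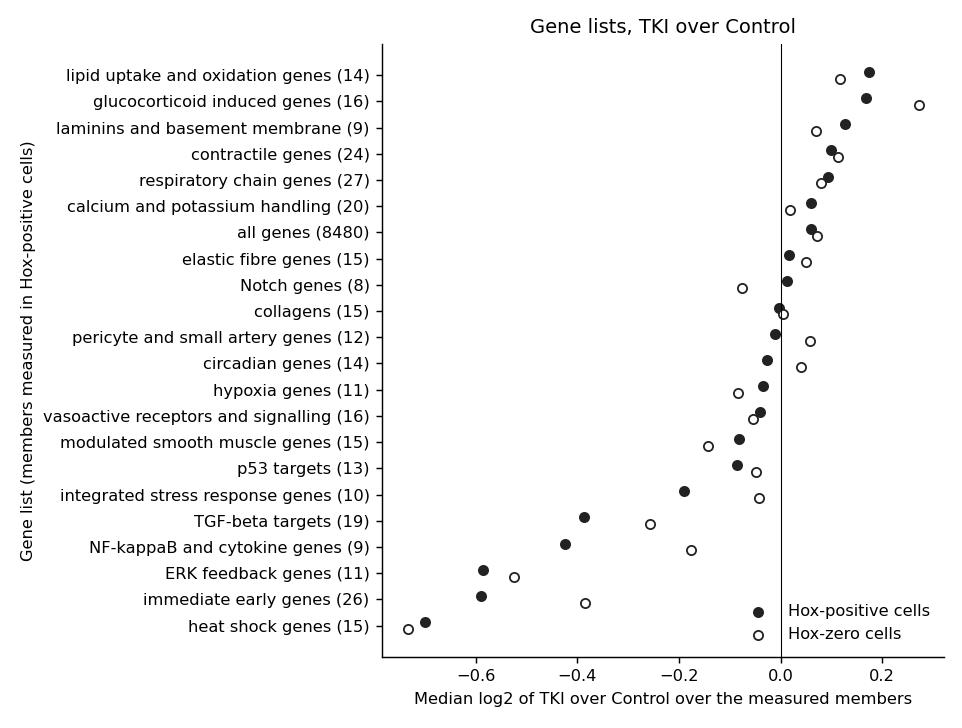
Median log2 ratio of TKI over Control (x axis) over the measured members of each gene list (rows, number of members in parentheses), in Hox-positive cells (filled) and Hox-zero cells (open); points carry no error, with 1 library per group. Heat shock genes lie lowest, at -0.70 and -0.73, and contractile genes lie at 0.10 and 0.11.

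The contractile genes as a list lay near the median of all genes. None of 24 passed 1.5-fold, and their median was 0.10 in Hox-positive and 0.11 in Hox-zero cells, beside 0.06 and 0.07 over all genes. Myl9, the regulatory light chain, was at log2 0.43, Csrp1, a LIM protein, at 0.42 and Tpm2, a tropomyosin, at 0.36, while Myocd was at -0.43. Of 15 elastic fibre genes none passed (median 0.02; Eln, elastin, -0.40), of 15 collagens 1 was lower (0.00), and of 27 respiratory chain genes none passed (0.09). Of 15 genes of modulated smooth muscle, 1 was higher, Vcam1 at 0.75 (1.46 without the top cell of each library), and 5 lower, with a median of -0.08: Sox9 at -0.72, Cd44 at -0.67, Klf4 at -0.61, and Dcn and Timp1, which rest mostly on 1 Control cell each. Over all 8480 genes, 4.13% were higher and 2.87% lower. A count of 1 or 2 members is too small to set a list in this paragraph apart from those shares. Of 14 genes of lipid uptake and oxidation, 2 were higher, among them Cpt2, of mitochondrial fatty acid import, at 0.78. Of 13 p53 targets 1 was higher, Trp53inp1 at 1.20, and 4 lower, among them Plk2 at -0.98. Of 11 hypoxia genes 1 was higher, Hilpda at 0.67, and 3 lower, among them P4ha1, a collagen prolyl hydroxylase, at -1.07 and Vegfa at -0.71.

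Of 9 listed kinases that sunitinib inhibits, 2 had enough UMIs to be counted, Pdgfrb and Flt1. Of these, Pdgfrb was called lower in TKI, only just past 1.5-fold. Over all genes, 2.87% were called lower. Pdgfrb, the PDGF receptor of mural cells, had 497 UMIs in TKI and 538 in Control (53.3 and 80.3 CPM), at log2 -0.59 (-0.77 to -0.41), and Flt1, a VEGF receptor, 120 and 125 UMIs, at -0.54. Pdgfra had 42 and 18 UMIs, Kit 23 and 33, and Kdr none in either. Piezo1, the channel that Yoda1 opens, had 42 UMIs in TKI and 36 in Control (4.50 and 5.37 CPM), too few to read a difference. Within Hox-positive cells the log2 ratio of TKI over Control was -0.33 for Hand2, -0.03 for Tbx20, 0.26 for Tbx18 and -0.31 for Sema3a, and Rgs17 was at 0.68, which was 0.38 without the limits on Rgs5 and Sfrp2 and 0.32 with contractile genes at 4% of UMIs or more. Of 7 measured trunk mesoderm and regional factors, 1 was called lower, Foxc2, a forkhead factor, at -0.59. None of the 6 measured Hox genes of groups 1 to 5 passed 1.5-fold. Hotairm1 was called lower, with 319 and 355 UMIs, at -0.63. With at least 3 Hox UMIs it was at -0.58, and without cells with 2 or more endothelial or fibroblast UMIs other than Col1a1 at -0.55, both under 1.5-fold. Hox-zero cells also had less Hotairm1 in TKI, at 28.6 CPM against 43.2 CPM in Control.

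The TKI over Control ratio of some genes differed between the classes. Of 8425 genes measured in both, 225 (2.67%) had ratios that differed at least 1.5-fold, 120 higher and 105 lower in Hox-positive cells, and for 169 of them the counting interval of the difference lay clear of 0. These genes were picked by the size of their difference among all those measured. The interval is not adjusted for that and leaves out the spread between cells, so 169 is not a count of tested differences. Tulp3 and Ofd1, both proteins of the primary cilium, were among the 5 highest, at log2 1.15 against -0.07 and 0.93 against -0.27. Dph5, a diphthamide synthesis enzyme, was at 1.25 against 0.17. Without the limits on Rgs5 and Sfrp2, the Hox-positive ratios of Tulp3, Ofd1 and Dph5 were 0.19, 0.16 and 0.53, all under 1.5-fold. Among the 5 lowest, besides Slc16a1 and Dusp2, were Eif2ak4, the amino acid sensor GCN2, at -0.42 against 0.87, and Igfbp2, at -0.08 against 1.43. The Hox-positive over Hox-zero ratio in Control was log2 0.77 for Slc16a1 and 1.24 for Dusp2. With the rule on thinned cells it was -0.14 and -0.0068. For Eif2ak4 in TKI that ratio was -0.69, and -0.14 without the limits on Rgs5 and Sfrp2. Thbs1, thrombospondin 1, at 0.26 against -1.50, had the highest difference, 1.76, which was 1.29 without the top cells, while that of Timp1 turned round, at 0.16 in place of -2.76. No replicate stands behind these differences.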

How the data were processed

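Single-cell 3' libraries (Chromium kit) were counted by the authors with Cell Ranger 6.0.0, per the file headers of the TKI and Control matrices; the submitters' processing notes name mm10, Cell Ranger and Seurat. The deposited values are raw UMI counts per gene and barcode for 32285 genes; annotation, strand setting and intron counting are not given in the sources used here. The lowest barcode had 500 UMIs in TKI and 501 in Control. Counts were summed over the cells of each class and divided by the class total (CPM). Intervals are exact conditional binomial for ratios and Clopper-Pearson for shares, at 95%, with a normal approximation for differences of ratios; they cover counting error only. The labels' protocol aimed at about 10000 cells a sample, against 4506 (TKI) and 4491 (Control) barcodes in the files. A gene was called at 1.5-fold with 100 UMIs over both sums, and a list by its counts and median; the script was tested on simulated data. The members, the 38 gene lists and the rules were chosen with earlier results of these data known. Named genes were the 10 highest and 10 lowest called genes with a UMI in at least 10% of cells of 1 library (for Hox-positive against Hox-zero, called the same way in both libraries and after thinning, ranked by the ratio nearer 0), the 5 highest and 5 lowest differences of ratios, every Hox gene, Piezo1, the sunitinib targets and up to 4 members of each list. Some other called members of a list are named beside its count, and Pax1, Pax9 and Piezo2 were named outside these rules. Scrublet, in scanpy 1.11.5, marked 1 TKI and 1 Control barcode (0.0222% and 0.0223%), so it did not work and doublets were not removed. Of the gene IDs, 32158 (99.6%) were in GENCODE vM21, which gave mm10 coordinates; promoters are from RefSeq. Python 3.11.15, scipy 1.17.1, R 4.3.3, edgeR 4.0.16 (TMM factors only) and DESeq2 1.42.0 (size factors only) were used; no count model was fitted, with 1 library per group. Alternatives covered the Hox, depth, mitochondrial, contractile and Rgs5 and Sfrp2 limits, doublets, RNA of other cells, gene minimum and scaling. Some genes that these rules name are not reported here.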

Additional observations from a re-analysis of the deposited data

How the results depend on the processing

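No paired analysis was possible because each group has 1 library; for the same reason none could be left out. Of 18 alternatives, 16 were planned and 2 were added after seeing the data (leaving out cells with endothelial or fibroblast UMIs other than Col1a1, and leaving out the top cell of each gene). Of 79 called gene values, 62 stayed at least 1.5-fold the same way under every alternative that gave a value, and 6 gene values reversed. The Hand2 log2 ratio of Hox-positive over Hox-zero cells lay between -4.24 and -3.78 in TKI and between -4.09 and -2.97 in Control. The cause of the changes below was not tested, apart from the number of genes or cells an alternative leaves.

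At most 5% mitochondrial UMIs, which left 24 TKI and 38 Control Hox-positive cells, gave shares of 35.8% and 28.6%, 59 higher and 127 lower genes for TKI against Control, 32 and 28 for Hox-positive against Hox-zero in TKI and 4 and 2 in both libraries. Leaving out every cell with 2 endothelial or fibroblast UMIs, where Col1a1 alone removes most muscle, left 32 and 15 cells, shares of 50% and 25.4%, 54 and 49 genes for TKI against Control, 35 and 20 for the classes in TKI, 21 and 62 in Control and 2 and 4 in both; the medians of immediate early and ERK feedback genes became 0.30 and 0.33. A minimum of 50 UMIs gave 625 genes higher in TKI, 237 and 194 for the classes in TKI, 220 and 210 in Control and 76 lower in both. A minimum of 300 UMIs gave 94 and 143, 27 and 27, 35 and 38, and 15 and 18 in the same order with both directions. No minimum gave 1756 and 962, 1200 and 957, 983 and 1082, and 264 and 296. Without the Rgs5 and Sfrp2 limits, 1741 and 1634 cells were Hox-positive, the shares were 55.4% and 48.3%, the classes differed in 203 and 181 genes in TKI, 171 and 196 in Control and 94 and 119 in both, and the Hox-positive over Hox-zero ratio of Igfbp2 in Control turned to -0.48. With the rule on thinned cells the shares were 24.9% and 15.2%, 243 genes were lower in Hox-positive than in Hox-zero Control cells, and the same ratio of Dusp2, Slc16a1 and Timp1, at least 1.5-fold above 1 in the reported setting, turned to log2 -0.0068, -0.14 and -0.55. A contractile share of 4% gave 24 genes higher in both. At least 1 Hox UMI gave shares of 56.3% and 48.0%, and at least 3 gave 28.8% and 18.8%, with the Timp1 ratio in Control at -0.63; without the top cell of each class it was at -0.31.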

Other observations

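In the Yoda1 library, which no comparison above uses, 32 cells met the rule's other steps and 14 of them held at least 2 posterior Hox UMIs. That library had a median of 4483.5 UMIs per barcode, and shared 8 barcodes with TKI and 3 with Control.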
